A study of Homo sapiens with 5 samples.

Results

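The 9 genes described here encode the interleukin-6 (IL-6) receptor, its signalling partners and their inhibitors: IL6R, IL6ST, LIFR, JAK1, JAK2, STAT3, SOCS2, SOCS3 and PIAS3. They were chosen by name, because IL6R was 2-fold higher with celastrol in an earlier account of these data. The array names them alone in 18 of its 22215 probe sets, and 1 further probe set is shared by IL6ST and MAGEA4. They are 9 of 12165 genes named alone. The samples are all labelled as LNCaP cells, a human prostate cancer line from a lymph node metastasis that responds to androgen, grown in RPMI with serum. The treated group received 1.25 µM celastrol, a triterpenoid from thunder god vine, for 6 h (2 arrays), and the control group its solvent DMSO for 6 h (3 arrays). The labels number the arrays as biological replicates, all of 1 cell line. Each array gave an intensity per probe set, and levels are log2(intensity + 1). Differences are celastrol minus DMSO replicates 1 and 2 in these units, so changes of dim genes come out too small.

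IL-6 binds the receptor chain encoded by IL6R, and the pair then recruits gp130, the shared signalling chain encoded by IL6ST. LIFR pairs with gp130 to receive leukaemia inhibitory factor. Gp130 carries the tyrosine kinases JAK1 and JAK2, which phosphorylate STAT3, a transcription factor that moves to the nucleus and turns on target genes. SOCS3 and SOCS2 are feedback inhibitors of cytokine receptors, and PIAS3 is an inhibitor of STAT3. In prostate cancer this pathway is studied for its crosstalk with androgen signalling, and the LNCaP line is known to be deficient in JAK1. The arrays measured transcripts, so receptor protein and STAT3 phosphorylation were not measured.

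The array labelled DMSO replicate 3 went against its LNCaP label, so it may not hold LNCaP RNA, and it is given separately. Across probe sets it correlated with the other 4 arrays at r = 0.843 to 0.844, against 0.994 to 0.998 among those 4. Among 12 luminal prostate markers measured, 11 were at least 2-fold lower on it than the mean of DMSO replicates 1 and 2. Of 14 lymphoid and other leukocyte markers, 10 were at least 2-fold higher on it. The median level of the luminal list was 4.56 on it and 9.81 to 9.96 on the other 4, which carry the luminal profile that the label LNCaP implies. KLK3, which encodes prostate-specific antigen, stood at 4.56 on it, against 10.89 and 10.71 on DMSO replicates 1 and 2, and the lymphoid marker CD74 at 13.11, against 4.44 on both. TRPM8 was the luminal marker without such an offset, and CD3D, CD3E, CD2 and CD14 were the leukocyte markers without one. All of these were dim on every array, at 4.94 or less, so TRPM8 could hardly have come out lower. Total intensity ran from 4939400 to 5348500 per array. Precision is limited by how few arrays there are.

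Of the genes chosen, IL6R alone differed by 2-fold between celastrol and DMSO. Its main probe set, 205945_at, stood at 5.91 and 5.79 on celastrol replicates 1 and 2, against 4.96 and 4.75 on DMSO replicates 1 and 2. Both celastrol arrays lay above both DMSO arrays, with means of 5.85 ± 0.0829 and 4.85 ± 0.147 (SD, n = 2 each). The difference was 1.00 (SE 0.119), or 2.00-fold, which is the value the choice of genes rests on and is given without a test. The second IL6R probe set, 217489_s_at, stood at 4.90 and 4.75 with celastrol, against 4.49 and 4.64 with DMSO. It ran the same way without overlap, but by 0.26 (SE 0.108), so the probe sets disagree on the size. Its DMSO mean, 4.56, lay near 4.54, the level below which probe sets were not tested as too dim. Its difference may therefore come out too small. The DMSO mean of 205945_at, 4.85, was also low. With log2(value + 16) the differences of 205945_at and 217489_s_at were 0.73 and 0.17. The 2 sizes thus cannot be compared closely. On the array labelled DMSO replicate 3, which the choice did not use, 205945_at and 217489_s_at stood at 5.02 and 4.54, or 0.16 and -0.03 from the DMSO mean. The rule's 2-fold level fell between 205945_at and the member with the next largest difference upward, an IL6ST probe set at 0.27.

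**Figure D1:**
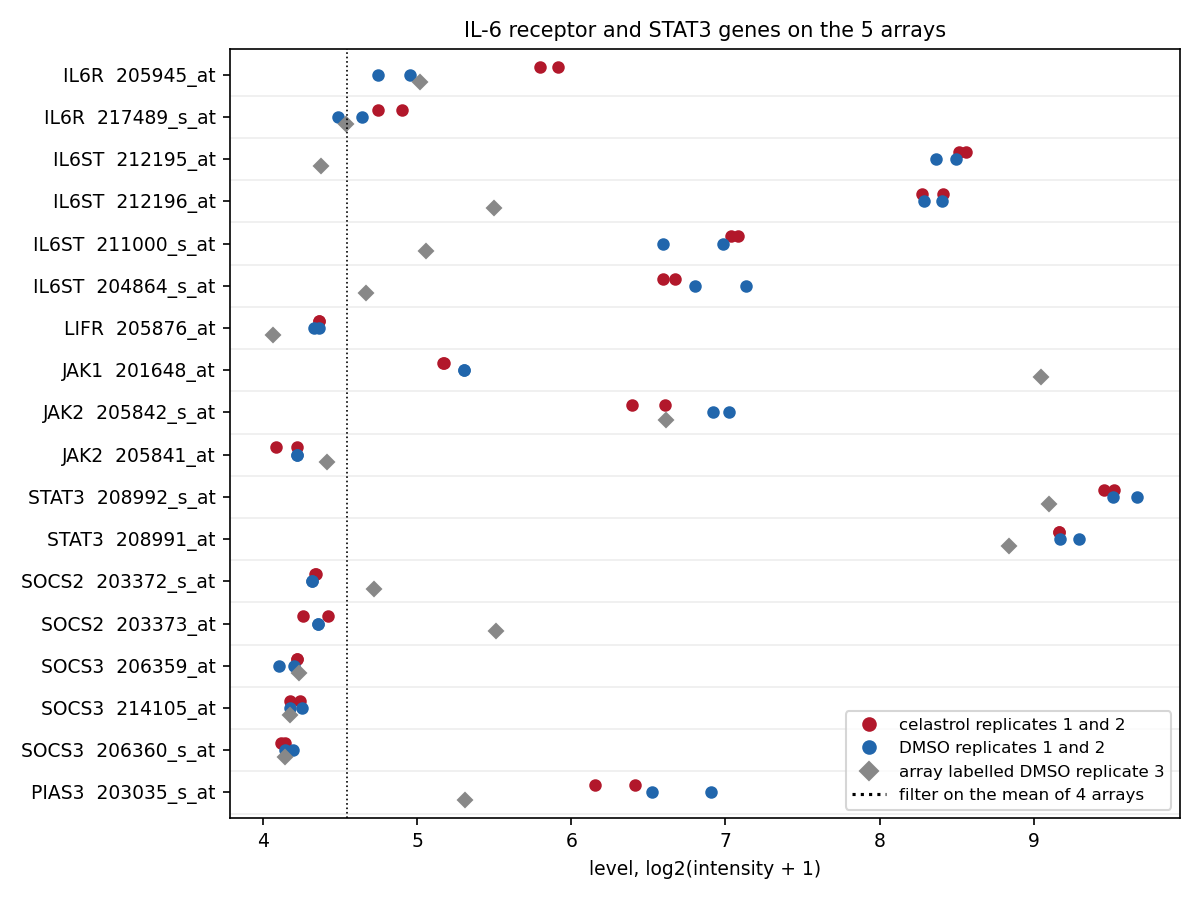
Level of each of the 18 probe sets, log2(intensity + 1), on the celastrol arrays (upper points of a row), DMSO replicates 1 and 2 (middle) and the array labelled DMSO replicate 3 (diamond), with the dim filter as a dotted line at 4.54. IL6R 205945_at has the clearest gap between celastrol and DMSO, while IL6ST and JAK1 differ most on the array labelled DMSO replicate 3.

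The IL6R promoter is shown because this gene carries the difference, and that of STAT3 because it holds a match to the same motif while its level hardly differed. Both run from 250 bases before the start of transcription to 50 after it, are from RefSeq (GRCh38.p14) and are written 5′ to 3′ on the gene's strand. Capitals mark a match to TTCNNGAA or GAANNTTC, pairs of inverted units of the heat shock element that heat shock factor 1 binds, each of which reads the same on both strands. IL6R lies on the plus strand, at chr1:154405093-154405392, and STAT3 on the minus strand, at chr17:42388393-42388692.
IL6R: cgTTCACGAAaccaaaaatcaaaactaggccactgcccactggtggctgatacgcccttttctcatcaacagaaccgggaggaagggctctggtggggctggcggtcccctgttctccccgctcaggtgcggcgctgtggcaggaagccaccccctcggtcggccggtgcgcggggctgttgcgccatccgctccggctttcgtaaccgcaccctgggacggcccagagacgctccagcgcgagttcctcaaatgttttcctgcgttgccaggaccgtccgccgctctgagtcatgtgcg
STAT3: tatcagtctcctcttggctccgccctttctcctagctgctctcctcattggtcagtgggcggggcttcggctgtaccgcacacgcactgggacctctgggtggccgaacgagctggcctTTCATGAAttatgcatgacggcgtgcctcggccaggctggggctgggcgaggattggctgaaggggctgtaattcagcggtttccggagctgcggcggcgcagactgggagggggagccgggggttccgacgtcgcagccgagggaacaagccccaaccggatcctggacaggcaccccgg
The IL6R match begins 248 bases before the start, and that of STAT3 131 bases before it. Matches are common: 4737 of 35116 RefSeq promoter windows of this length (13.5%) hold at least 1. Among the genes chosen, 8 matched the promoter table, with 16 windows. Of these windows 4 held a match, 1 each of IL6R, STAT3, SOCS3 and JAK1. The STAT motif TTCNNNGAA, also its own reverse complement, occurred in 2 of the 16 windows, both of LIFR, and in 7.66% of all windows. The motifs were chosen with the expression values known, and a match is no evidence of binding.

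IL6ST, which encodes gp130, had 4 probe sets of its own, and they did not run one way. On 212195_at its levels were 8.56 and 8.51 with celastrol, against 8.37 and 8.49 with DMSO, a difference of 0.11 (SE 0.0667). On 212196_at they were 8.27 and 8.41 with celastrol, against 8.29 and 8.41 with DMSO, and the groups overlapped. On 211000_s_at they were 7.08 and 7.03 with celastrol, against 6.60 and 6.99 with DMSO. The higher difference there, 0.27 (SE 0.196), came with DMSO arrays that lay farther apart than the celastrol arrays did. On 204864_s_at they were 6.67 and 6.59 with celastrol, against 6.80 and 7.13 with DMSO, a difference of -0.33 (SE 0.170). The probe set shared with MAGEA4 differed by -0.03. The gp130 probe sets thus spanned -0.33 to 0.27. LIFR, on 1 probe set, was at 4.36 on both celastrol arrays, against 4.36 and 4.33 with DMSO. These values lay under the level of 4.54 below which the dimmest 40% of probe sets, by mean over the 4 arrays, were not tested.

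Of the kinases, JAK2 was lower on 1 of its probe sets and JAK1 differed little. JAK2 on 205842_s_at stood at 6.61 and 6.39 with celastrol, against 7.02 and 6.92 with DMSO. Both celastrol arrays were below both DMSO arrays, with a difference of -0.47 (SE 0.120), the lowest among the 18 probe sets. Its other probe set, 205841_at, was dim, at 4.22 and 4.09 with celastrol, against 4.22 on both DMSO arrays. JAK1 stood at 5.17 on both celastrol arrays, against 5.30 on both DMSO arrays. The groups did not overlap, but the difference was only -0.13, and the DMSO values were identical. Such ties occurred within a group for 6 of the 18 probe sets and for 34.1% of all probe sets, and a spread of 0 does not measure the error.

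STAT3 differed little between the groups. On 208992_s_at it stood at 9.46 and 9.52 with celastrol, against 9.67 and 9.51 with DMSO, with overlapping groups and a difference of -0.10 (SE 0.0828). On 208991_at it was at 9.17 on both celastrol arrays, against 9.17 and 9.29 with DMSO, a difference of -0.06 (SE 0.0614). Neither difference was larger than the gap between the DMSO arrays.

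Among the inhibitors, PIAS3 stood at 6.16 and 6.41 with celastrol, against 6.53 and 6.91 with DMSO. The groups did not overlap, and the difference was -0.43 (SE 0.229), about as large as the gap of the DMSO arrays. SOCS3, the feedback gene most directly read as a STAT3 target, was dim on its 3 probe sets, between 4.12 and 4.24 with celastrol, against 4.10 to 4.25 with DMSO. SOCS2 was dim on both of its probe sets, between 4.26 and 4.42 with celastrol, against 4.32 to 4.36 with DMSO. The 5 SOCS differences lay between -0.04 and 0.07. At these levels an array cannot show whether a transcript is absent or changed.

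Of the 18 probe sets, 11 of 6 genes passed the dim filter, and LIFR, SOCS2 and SOCS3 had none that did. In limma fitted to the 13329 probe sets kept, 0.908% of them were called at an adjusted p under 0.05 (Benjamini-Hochberg), 0.503% higher and 0.405% lower. The 11 had 0 calls and 3 unadjusted limma p under 0.05, where 2504 of the 13329 probe sets kept had such a p. Their groups did not overlap in 9 cases, 4 higher and 5 lower, where 41.5% of all probe sets tested did not overlap, 15.9% higher and 25.6% lower. A 2-fold difference without overlap was seen in 1 of the 11, on the higher side, and in 0.72% of all, with 0.45% on the higher side. The median difference of the 11 was -0.06, beside -0.02 over all probe sets tested. The genes were chosen on this contrast, so nothing is read from these counts.

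Other genes of the pathway were taken from 6 lists, and 51 of 84 measured genes passed the filter. Of these, 2 rose with celastrol and 0 fell in limma, where 1.04% of the 8091 genes tested were called, 0.569% higher and 0.47% lower, and 13 had an unadjusted p under 0.05. An unadjusted p under 0.05 was found for 20.2% of all genes tested. Their groups did not overlap for 11 higher and 12 lower genes, 45.1% of the 51, beside 42.8% of all genes, 16.3% higher and 26.5% lower. The median difference was 0.03 in the lists and -0.02 over all genes tested. Each gene was counted by its brightest probe set over the 4 arrays. With any of its probe sets counted, 3 of the 51 genes were called, all higher. No like share was computed over all genes.

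Both genes called on their brightest probe set belong to a list of 25 tested genes known to be induced through IL-6 and STAT3 in some cell type. CEBPB, a transcription factor of the acute-phase response, stood at 9.46 on both celastrol arrays, against 8.49 and 8.56 with DMSO. The difference was 0.93 (SE 0.0329, limma adjusted p = 0.0367), or 1.91-fold, and the groups were far apart. ZFP36, which encodes an mRNA-decay protein also induced by other stimuli, stood at 8.01 and 7.95 with celastrol, against 6.86 and 7.00 with DMSO. It rose by 1.05 (SE 0.0745, limma adjusted p = 0.0482), or 2.07-fold. Neither call held after leaving out whichever array of the 4, or with no filter. With 1 array of the 4 left out the differences ran from 0.90 to 0.97 for CEBPB and from 0.98 to 1.12 for ZFP36. With the array labelled DMSO replicate 3 included, where they stood at 5.75 and 8.48, the differences were 1.86 (SE 1.05) and 0.53 (SE 0.589).

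In the same list EGR1, an immediate-early transcription factor, was read from the brighter of its 2 probe sets. It stood at 5.72 and 5.32 with celastrol, against 4.35 and 4.46 with DMSO. Its difference was 1.11 (SE 0.206). Its DMSO mean, 4.40, lay under the filter level, so it was among the genes tested only through its celastrol values, and its limma adjusted p of 0.110, which did not pass, is no independent measure. VEGFA, an angiogenic growth factor, was read from the brightest of its 4 probe sets. This stood at 8.77 and 8.58 with celastrol, against 8.01 and 8.05 with DMSO, and also did not pass (limma adjusted p = 0.0922). Of the 25 genes of the list, 9 were higher and 4 lower without overlap, beside 16.3% and 26.5% of all genes tested, and the median difference was 0.09. The 4 lower genes were BIRC5, CCND1, BCL2L1 and MCL1, with differences of -0.52, -0.26, -0.21 and -0.06, and none was called. BIRC5 stood at 7.94 and 7.59 with celastrol, against 8.37 and 8.20 with DMSO. EGR1 and AGT passed the filter through their celastrol values alone, and without them 8 were higher and 4 lower, with a median of 0.05. Of the acute-phase genes typical of liver, FGB, FGG, CRP, SERPINA3 and LBP were below the filter. FGA, HP, SAA1 and A2M passed it but were not called, and of these HP alone had groups that did not overlap, at 5.51 and 5.29 with celastrol, against 5.04 and 5.25 with DMSO.

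In the other lists no gene was called on its brightest probe set. Of 7 measured ligand genes of the gp130 family 6 were below the filter, and IL6 itself was at 4.05 on all 4 arrays. IL11, the ligand that passed it, was at 4.97 and 5.23 with celastrol, against 5.02 and 4.98 with DMSO, with overlap. Among 4 tested receptors, GHR, the growth hormone receptor, which signals through JAK2, stood at 7.73 and 7.76 with celastrol, against 8.43 and 8.20 with DMSO. Its difference of -0.57 (SE 0.118) did not pass (limma adjusted p = 0.125). IL11RA, the IL-11 receptor chain that pairs with gp130, stood at 4.61 and 4.50 with celastrol, against 5.09 and 4.90 with DMSO (limma adjusted p = 0.153).

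Among 3 other JAK and STAT genes tested, TYK2, a kinase of the same family, was the one without overlap, at 7.38 and 7.36 with celastrol, against 7.46 and 7.43 with DMSO. Among 11 other inhibitors and phosphatases the largest difference without overlap was -0.12, of PTPN6, which encodes the phosphatase SHP-1, and the next was -0.04, of NDUFA13. Among 7 shedding and adaptor genes was ADAM17, the protease that releases the IL-6 receptor from the cell surface. On the brightest of its 3 probe sets ADAM17 stood at 5.95 and 6.01 with celastrol, against 5.54 and 5.79 with DMSO. Its difference of 0.31 did not pass (limma adjusted p = 0.289). GRB2, an adaptor of the MAP kinase branch, differed by -0.12.

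**Figure D2:**
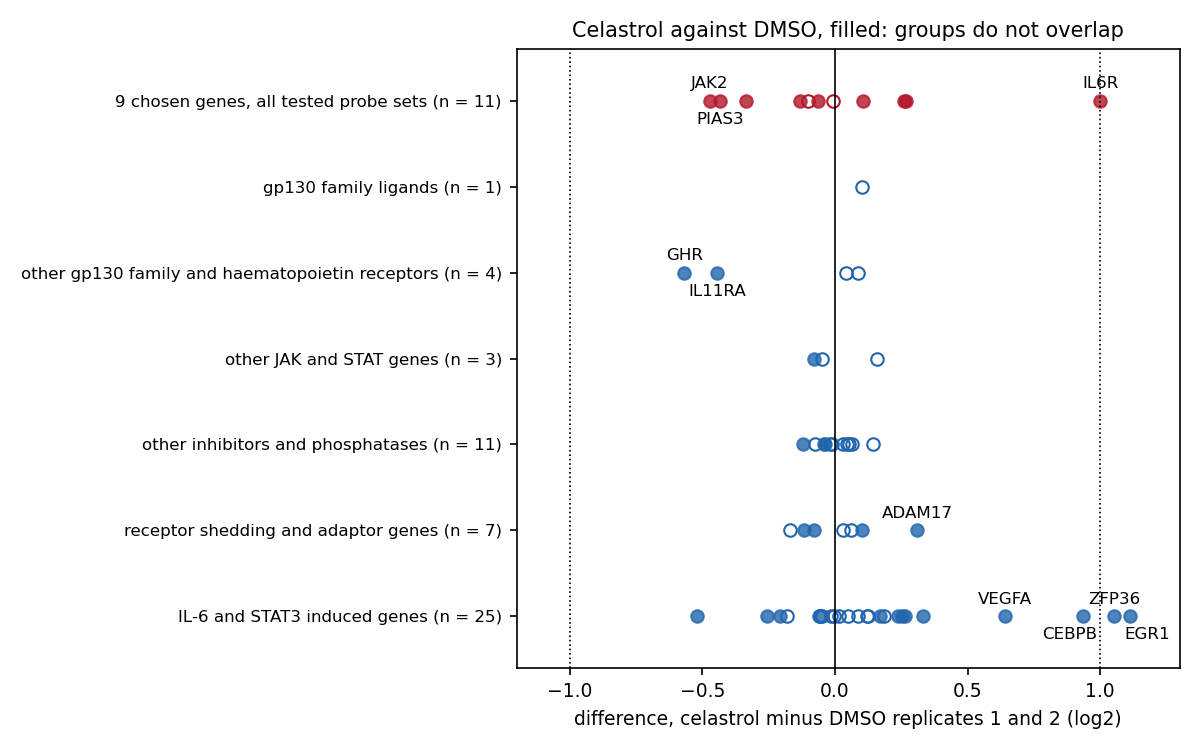
Difference in log2 level, celastrol minus DMSO replicates 1 and 2, for the 11 tested probe sets of the genes chosen and for the tested genes of the 6 pathway lists; filled points mark groups that do not overlap and dotted lines mark 2-fold. IL6R at 1.00, CEBPB at 0.93, ZFP36 at 1.05 and EGR1 at 1.11, which was tested only through its celastrol values, lie to the right, and most other points lie within 0.5 of 0.

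The genes whose pattern over all 5 arrays was nearest to that of IL6R were STIP1, DNAJA1, FICD, HSPA6 and ZNF473, by Euclidean distance between levels centred on each gene's mean. STIP1, a cochaperone bridging HSP70 to HSP90, lay at a distance of 0.137, with 10.43 and 10.33 on the celastrol arrays, against 9.34 and 9.27 on DMSO replicates 1 and 2. DNAJA1, a J-domain cochaperone of HSP70, was at a distance of 0.183, FICD, an enzyme that modifies the endoplasmic reticulum chaperone BiP, at 0.211 and HSPA6, a stress-inducible HSP70, at 0.222. ZNF473, a zinc finger protein, lay at 0.249. Their differences ran from 0.90 for HSPA6 to 1.18 for FICD, beside 1.00 for IL6R. The rule compared 5 arrays that share 1 contrast, so nearness says only that these genes differ by a like amount and are not offset on the array labelled DMSO replicate 3. Of these genes, 4 had promoter windows in the RefSeq table, 5 windows in all. The heat shock motif pair marked in the IL6R promoter occurred in 3 of the 5, beside 13.5% of all windows. These were windows of STIP1, DNAJA1 and HSPA6, and STIP1 also had a window without a match. The STIP1 match lay after the start of transcription. With so few windows, of genes picked for their likeness to IL6R, nothing is read from this count, and binding was not tested.

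**Figure D3:**
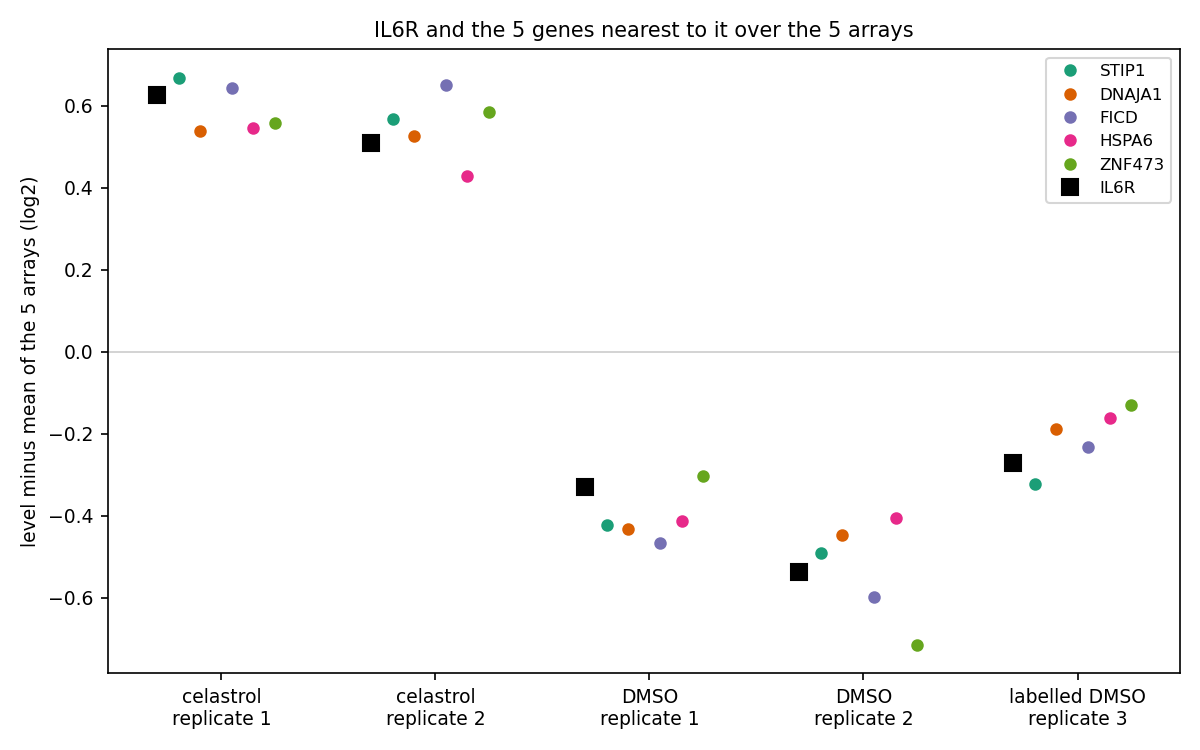
Level of IL6R (squares) and of the 5 nearest genes (circles) on each array, as log2 level minus the gene's mean over the 5 arrays. All 6 genes lie above 0 on the 2 celastrol arrays and below 0 on the 3 arrays labelled DMSO.

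The array labelled DMSO replicate 3 differed from DMSO replicates 1 and 2 most in IL6ST and JAK1. The 4 IL6ST probe sets stood at 4.38, 5.50, 5.06 and 4.67 on it, with differences of -4.05, -2.85, -1.73 and -2.30 from the mean of DMSO replicates 1 and 2. JAK1 stood at 9.05 on it, against 5.30 on both other DMSO arrays, higher by 3.75. PIAS3 stood at 5.31, a difference of -1.40, and SOCS2 on 203373_at at 5.51, a difference of 1.15. In all, 2 of the 18 probe sets were at least 2-fold higher and 5 at least 2-fold lower, beside 7.52% and 10.1% of all probe sets. STAT3 was nearer, with differences of -0.49 and -0.39, and SOCS3 stayed between 4.14 and 4.24. With this array counted among the DMSO samples, the difference of IL6R 205945_at was 0.95 (SE 0.106), while IL6ST 212195_at moved to 1.46, JAK1 to -1.38 and PIAS3 to 0.04. In a culture a lower signal can stand for fewer cells with a transcript or for less of it in each cell. On this array it can also stand for RNA of other cells, and these cannot be told apart.

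**Figure D4:**
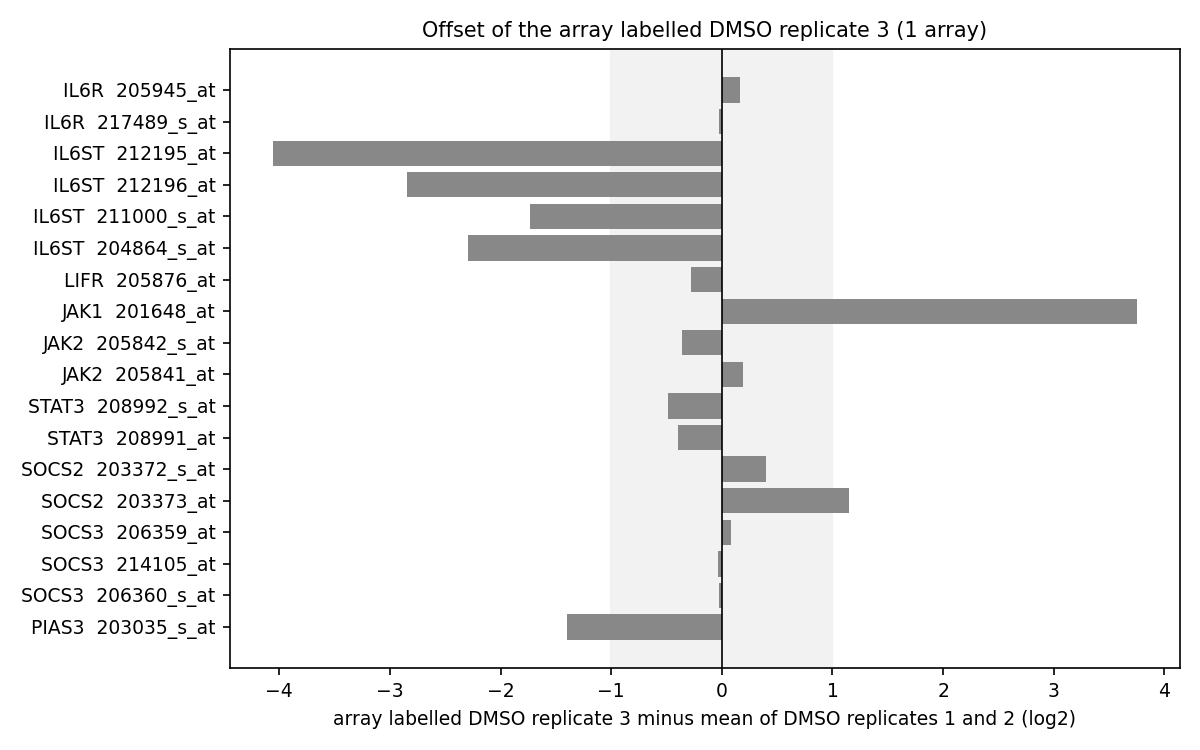
Level on the array labelled DMSO replicate 3 minus the mean of DMSO replicates 1 and 2 (log2) for the 18 probe sets, with no error because it is 1 array; grey shading marks differences under 2-fold. JAK1 is higher by 3.75, the IL6ST probe sets are lower (down to -4.05), and both IL6R probe sets lie close to 0.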

How the data were processed

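Total RNA taken with Trizol from cells labelled LNCaP was labelled as biotinylated cRNA by the Affymetrix protocol, per the labels. Groups follow the sample titles and treatment protocols, although the description of the DMSO samples names celastrol. The deposited values are intensities on a linear scale, 1 for each of 22215 probe sets on every array. The submitters' processing notes name RMA; its version is not given. Probe sets were named from the platform annotation: 19724 name 1 gene, 568 several and 1923 are unnamed here. The look-up by Entrez ID changed 0 symbols. A gene of a list is represented by its brightest probe set over 4 arrays, and the genes chosen by every probe set.

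Levels are log2(value + 1) of the deposited intensities, not normalized again. Limma 3.58.1 in R 4.3.3 (lmFit, eBayes, two-sided) was fitted to celastrol replicates 1 and 2 and DMSO replicates 1 and 2, without the dimmest 40% by mean over these 4 arrays (level 4.54). Benjamini-Hochberg adjustment ran over the 13329 kept, with a threshold of 0.05. The SE printed beside a difference comes from the arrays of that probe set, without limma's moderation. SEs on all 5 arrays are limma's for CEBPB, ZFP36 and IL6R. The fit was tested on simulated normal values with seeded changes. These lack the ties of the real arrays, so the test checks the code and not the calls made here. The members, lists, arrays and filter were chosen with earlier results of these data known. Named list genes are those past the threshold and, per list, up to 2 others with the largest difference whose groups do not overlap. In the list of induced genes, the lower genes without overlap and the acute-phase genes are named as well. The main fit did not pair arrays by replicate number. The difference of replicates 1 and 2 correlated between groups at r = -0.0197 over probe sets. No shared shift was thus seen, but this cannot show that same-numbered arrays were prepared apart. Alternatives covered all 5 arrays, filters, pseudocount, normalization, variance model, a replicate block and leaving out each array.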

Additional observations from a re-analysis of the deposited data

Results flagged for a closer look

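2 values on the array labelled DMSO replicate 3, which the comparison does not use, were at least 2-fold above both other DMSO arrays. JAK1 (201648_at) was at 9.05 on it, against 5.30 on DMSO replicates 1 and 2. SOCS2 (203373_at) was at 5.51 on it, against 4.36 on both others, while the other SOCS2 probe set was at 4.72, against 4.32 on both. With 2 or 3 arrays a group, no array was tested as an outlier within its group.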

How the results depend on the processing

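The call count moved with the arrays, the filter, the normalization and the replicate block, and less with the variance model. Over all genes, 84 were called as reported, 0 on all 5 arrays, 2 without a filter, 21 with the dimmest 20% left out, 255 after quantile normalization and 195 after median centring. With the replicate number as a block, which leaves 1 residual degree of freedom, 0 were called, and with 1 array left out the count was 0 to 0. Of the other pathway genes 2 were called as reported, 0 on all 5 arrays, 0 without a filter, 0 with the dimmest 20% left out, 4 after quantile normalization, 0 with the replicate block and 0 to 0 with 1 array left out. The other alternatives gave 78 to 92 genes, and 2 or 3 pathway genes. Of 171 values of the chosen genes under alternatives, the shared probe set included, 149 lay within 1 SD of the reported value and 19 had the other sign, none of them of IL6R, JAK1 or JAK2. IL6R 205945_at ran from 0.73 with log2(value + 16) to 1.11 with 1 array left out, and JAK2 205842_s_at from -0.58 to -0.35. PIAS3, both STAT3 probe sets, IL6ST 204864_s_at and 212196_at and the probe set shared with MAGEA4 changed sign on all 5 arrays. So did SOCS2 203372_s_at and SOCS3 214105_at, which were dim. Probe sets near the floor limit what LIFR, SOCS2, SOCS3 and JAK2 205841_at can show.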

Other observations

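On the array labelled DMSO replicate 3, other genes of the pathway also lay far from the other DMSO arrays. Of the 84 measured list genes, 20 were at least 2-fold higher on it than the mean of DMSO replicates 1 and 2 and 9 at least 2-fold lower, beside 7.52% and 10.1% of all probe sets. The counts are of genes, each by its brightest probe set, while the shares include dim probe sets, so they compare only roughly. EBI3, a subunit shared by IL-27 and IL-35, was at 9.13 on it, against 4.04 and 4.02 on DMSO replicates 1 and 2. PTPN6 was at 11.01, against 7.93 and 7.95, and STAT5A at 6.76, against 4.15 and 4.31. GHR was at 4.31, against 8.43 and 8.20, and CEBPB at 5.75, against 8.49 and 8.56. IL6 was at 3.95, against 4.05 on both. These are values of 1 array and carry no error.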
